A study of Mus musculus with 6 samples.

Results

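The genes described here are NF-κB subunits (Nfkb1, Nfkb2, Rel, Rela, Relb), inhibitors of the pathway (Nfkbia, Nfkbie, Nfkbiz, Tnfaip3) and the cytokine gene Il6. They were chosen by name, with earlier results of these data known. A gene was counted as measured where a probe set of the array was annotated with that gene alone. Of the 10 genes, 9 had such a probe set, 1 each, among 22180 genes measured in this way, and Nfkb1 was not analysed here. The data compare 3 arrays of wild-type luminal mammary cells (replicates 1, 2 and 4) with 3 arrays of mammary tumors (tumors 23, 24 and 25), all from female mice. The wild-type cells carried a Rosa26-Stop-YFP reporter and were sorted as YFP+ 10 to 14 days after Ad-K8-Cre, an adenovirus with Cre, had been injected into the milk ducts. The tumors came from Trp53L/L;Brca1L/L females that had received this virus by the same route several months earlier. The labels call them null for both genes, so tumors and controls share the virus but not the genotype, and the K8 (keratin 8) name of the virus refers to luminal cells. The labels describe sorting for the wild-type cells alone. Whether the tumors were sorted is not stated, so they may hold host cells, and the age of the animals is not given in the sources used here. Wild-type arrays came from different mice. Whether each tumor came from its own mouse is not stated, so p-values measure only the spread between these samples, which may be partly technical.

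NF-κB proteins are dimeric transcription factors. In resting cells, inhibitors with ankyrin repeats, such as IκBα from Nfkbia and IκBε from Nfkbie, hold the dimers in the cytoplasm. Receptors for tumor necrosis factor, interleukin-1 and microbial products activate the IκB kinase complex, which marks these inhibitors for breakdown and frees dimers of RelA and p50. A second arm processes the Nfkb2 product to p52, the usual partner of RelB. The dimers switch on the genes of their own brakes, Nfkbia and Tnfaip3 among them, and of cytokines such as interleukin-6. In the mammary gland the pathway is known for its part in the growth of ducts and alveoli and in the changes at weaning.

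RefSeq's promoter table (assembly GRCm38.p6) held windows from 250 bases before to 50 bases after an annotated start for 7 of the 9 measured genes. Shown are the 250 bases before the start for 4 of them, all with a match to the NF-κB consensus, to set Il6 and Nfkbia, of the 3 genes that fell in tumors, beside 2 that did not pass the test, Tnfaip3 and Nfkb2. Relb, the third gene that fell, is not shown. Capitals mark matches to the NF-κB consensus and to the AP-1 letters TGANTCA, searched on both strands; matches to the 2 motifs did not overlap each other here. The windows are chr5:30012864-30013113 (+ strand) for Il6, chr12:55492648-55492897 (- strand) for Nfkbia, chr10:19015411-19015660 (- strand) for the first listed start of Tnfaip3 and chr19:46304487-46304736 (+ strand) for the first listed start of Nfkb2. The window of the other listed start of Tnfaip3 held no match to either motif.
Il6: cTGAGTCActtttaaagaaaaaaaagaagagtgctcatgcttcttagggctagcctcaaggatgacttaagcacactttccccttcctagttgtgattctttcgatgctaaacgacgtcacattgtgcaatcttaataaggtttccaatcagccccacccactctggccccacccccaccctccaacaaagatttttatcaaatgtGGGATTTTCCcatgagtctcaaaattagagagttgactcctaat
Nfkbia: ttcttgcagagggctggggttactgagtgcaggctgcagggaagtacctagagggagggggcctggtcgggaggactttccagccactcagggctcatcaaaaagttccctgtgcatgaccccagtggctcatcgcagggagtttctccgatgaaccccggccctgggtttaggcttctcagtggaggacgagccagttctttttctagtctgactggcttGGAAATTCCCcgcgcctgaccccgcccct
Tnfaip3: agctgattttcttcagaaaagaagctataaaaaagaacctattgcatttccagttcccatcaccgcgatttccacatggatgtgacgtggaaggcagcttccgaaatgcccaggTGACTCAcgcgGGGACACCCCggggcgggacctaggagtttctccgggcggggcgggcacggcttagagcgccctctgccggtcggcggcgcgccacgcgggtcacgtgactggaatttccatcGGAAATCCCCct
Nfkb2: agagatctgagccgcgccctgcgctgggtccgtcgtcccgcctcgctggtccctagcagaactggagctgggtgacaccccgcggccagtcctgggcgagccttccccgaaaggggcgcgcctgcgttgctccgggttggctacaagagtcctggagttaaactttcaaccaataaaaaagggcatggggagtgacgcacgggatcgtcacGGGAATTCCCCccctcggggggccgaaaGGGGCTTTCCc
Counting back from the start, Il6 had GGGATTTTCC on its own strand at -44 and an AP-1 match, TGAGTCA, at -249. Nfkbia had GGGAATTTCC on the opposite strand at -29 and no AP-1 match. Tnfaip3 had NF-κB matches at -125 and -12 and an AP-1 match at -136. In Nfkb2 overlapping NF-κB matches began at -39 and -38, and another lay at -11. Over all windows, 6 of the 7 genes held an NF-κB match (Rela did not), against 9.55% of the 27025 genes in the table. An AP-1 match was found in 4 of the 7, against 8.97% of genes, and the cyclic AMP element TGACGTCA in 0 of 7, against 2.03%. In Nfkb2 the AP-1 match lay at another listed start, whose window is not shown. Matching genes lay both among those that fell and among those that did not pass, and a match is a description of letters, not of binding.

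In the tumors, 8 of the 9 genes had a lower mean than in wild-type cells, and Nfkb2 had a higher one; 58.3% of all genes had a lower mean. Il6, Nfkbia and Relb passed the test, and each fell. Levels are log2 values from RMA, the authors' normalization, and differences are tumor minus wild type with the standard error of limma, a linear model fitted over all 22180 genes. A gene passed where its Benjamini-Hochberg adjusted p was under 0.05. Of all genes, 1.39% fell by this rule and 2.52% rose, against 3 and 0 of the 9. At an unadjusted p under 0.05 the share of all genes was 26.4%, against 4 of the 9, and the unadjusted counts given for the lists below are to be read against that share. Counts of genes that fell or rose in those lists are likewise to be read against 1.39% and 2.52%. The tumors lay below every wild-type array for 4 of the 9 genes, Rela being the other one, and for 22.4% of all genes. The median difference of the 9 was -0.72, against -0.12 for all genes and 0.32 for the 7726 genes with a mean of at least 5. With 3 arrays a group an exact permutation test of a single gene cannot go below p = 0.10, so each call rests on limma's pooled spread. Leaving out any wild-type array left 0 of the 9 past the threshold (4 of the 9 at an unadjusted p under 0.05 in limma each time), leaving out tumor 23 or 25 left Il6 alone, and leaving out tumor 24 left the same 3 genes.

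**Figure D1:**
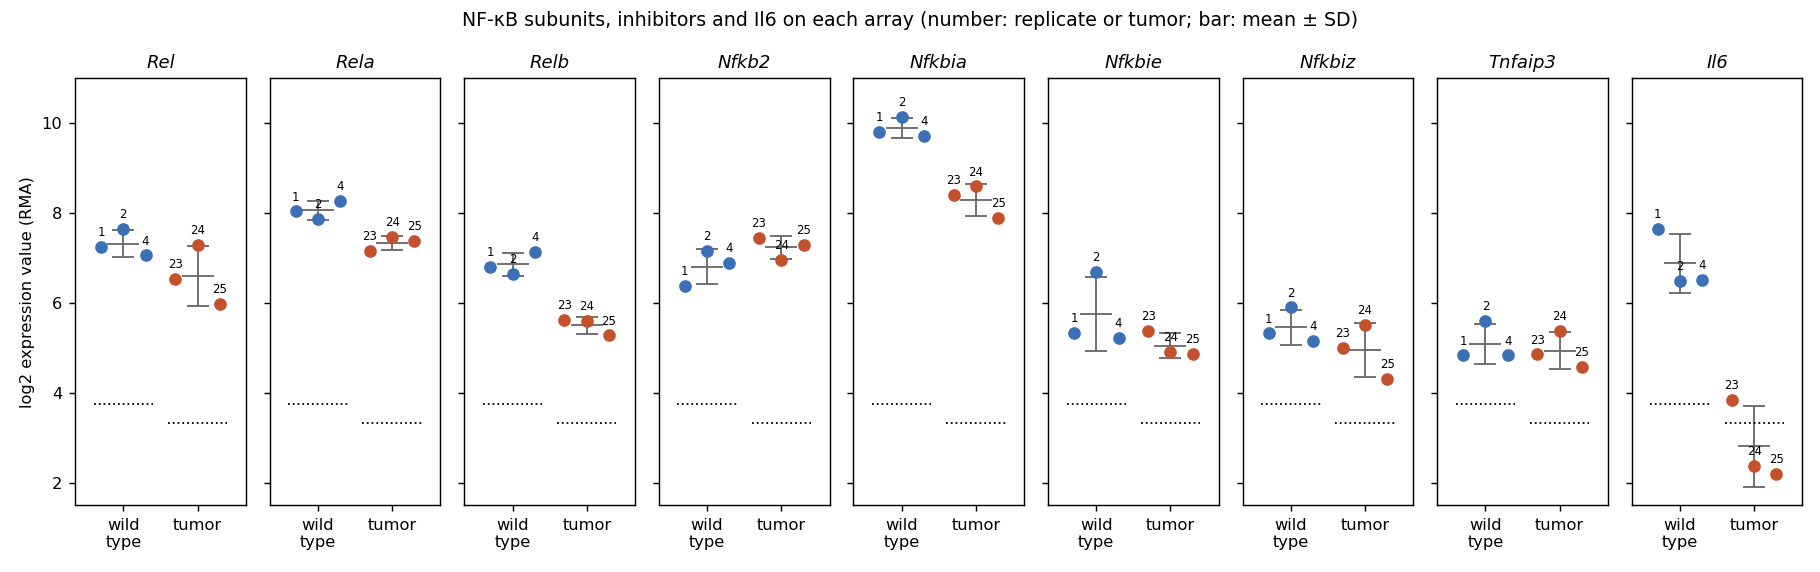
Log2 expression values (y axis) of the 9 measured genes on each array, wild-type cells in blue and tumors in orange, each point numbered by replicate or tumor, with the group mean ± SD. The dotted line is the mean of the background marks of the group. Relb, Rela, Nfkbia and Il6 do not overlap between groups, and Il6 lies below the mark in tumors 24 and 25.

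Il6, the gene of the inflammatory cytokine interleukin-6, differed most. It measured 7.65, 6.49 and 6.52 in wild-type replicates 1, 2 and 4, and 3.85, 2.39 and 2.20 in tumors 23, 24 and 25. All tumors lay below all wild-type arrays, and tumor 23 was the highest of the tumors. The means were 6.88 ± 0.66 and 2.81 ± 0.90 (SD, n = 3), which differed as measured by -4.07 ± 0.52 (SE, adjusted p of 0.019). The 95th percentile of 1088 olfactory receptor genes, genes not thought to be active in these samples, was taken as a mark for background; it lay at 3.19, 3.44 and 3.39 on the tumor arrays. Tumors 24 and 25 lay below it, so their Il6 values are not told from background. With these values raised to the mark, the difference between the means was -3.32, a 10.0-fold lower level in tumors. This is a lower bound for these arrays only and makes no allowance for their spread. The 95% interval of the difference as measured ran from -5.33 to -2.81. Without a wild-type array the adjusted p was 0.062 (replicate 1), 0.061 (replicate 2) or 0.073 (replicate 4), and without a tumor it stayed between 0.028 and 0.047.

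Of the inhibitors, Nfkbia fell and Nfkbie, Nfkbiz and Tnfaip3 did not pass. Nfkbia encodes IκBα, the inhibitor that NF-κB itself renews after each activation. It measured 9.82, 10.15 and 9.72 in wild-type replicates 1, 2 and 4, and 8.41, 8.60 and 7.90 in tumors 23, 24 and 25. The groups did not overlap, with 1.12 log2 units between the lowest wild-type array and the highest tumor. Its means were 9.89 ± 0.23 and 8.30 ± 0.36 (SD, n = 3), a 3.02-fold fall, with a difference of -1.59 ± 0.24 (SE) and an adjusted p of 0.027. The call held without tumor 24 (adjusted p of 0.027) and not without any other single array (0.054 to 0.091).

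Nfkbie, which encodes IκBε, a second cytoplasmic inhibitor, measured 5.34, 6.70 and 5.22 in wild-type replicates 1, 2 and 4 and 5.38, 4.91 and 4.87 in tumors 23, 24 and 25. Replicate 2 stood 1.37 above the next wild-type array, and tumor 23 lay above replicates 1 and 4. The difference was -0.70 ± 0.42 (SE, adjusted p of 0.32), with a 95% interval from -1.70 to 0.31, and it was -0.22 without replicate 2. Nfkbiz encodes the nuclear IκBζ, a partner of p50 needed for part of the cytokine response, Il6 included. It measured 5.33, 5.91 and 5.16 in wild-type cells and 5.01, 5.52 and 4.32 in tumors, in the same order of arrays, and the groups overlapped. Its difference was -0.51 ± 0.36 (SE, adjusted p of 0.37), with a 95% interval from -1.37 to 0.34. Without replicate 2 it measured -0.29 and without tumor 25 -0.19.

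Tnfaip3 encodes A20, a ubiquitin-editing enzyme that shuts off signals on the way to the IκB kinases. It measured 4.84, 5.60 and 4.84 in wild-type replicates 1, 2 and 4 and 4.86, 5.38 and 4.59 in tumors 23, 24 and 25, so the groups lay across each other. The difference of -0.15 ± 0.31 (SE, adjusted p of 0.76) had a 95% interval from -0.89 to 0.59, and its sign turned without replicate 2 (0.11) or tumor 25 (0.03). A change beyond these bounds lies outside the interval in either direction, and a smaller one is not told from none.

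Of the subunits, Relb fell, Rela and Rel had lower means and Nfkb2 had a higher mean. Relb encodes RelB, the subunit of the second arm of the pathway and itself an NF-κB target. It measured 6.80, 6.65 and 7.14 in wild-type replicates 1, 2 and 4, and 5.62, 5.61 and 5.28 in tumors 23, 24 and 25. Every tumor lay more than 1 log2 unit below every wild-type array. The means were 6.86 ± 0.25 and 5.51 ± 0.19 (SD, n = 3), a 2.56-fold fall, with a difference of -1.36 ± 0.21 (SE) and an adjusted p of 0.027. The call held without tumor 24 (0.037), and without each other single array the adjusted p lay between 0.064 and 0.093. It was 0.0502 with a trended, robust estimate of the spread.

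Rela encodes p65, the main activating subunit. It measured 8.04, 7.87 and 8.27 in wild-type replicates 1, 2 and 4, and 7.17, 7.47 and 7.39 in tumors 23, 24 and 25. The tumors were all lower and the groups were tight, with SDs of 0.20 and 0.16. The difference of -0.72 ± 0.19 (SE) did not pass, at an adjusted p of 0.086, although its 95% interval, not adjusted for the number of genes, ran from -1.17 to -0.27. Rel encodes c-Rel, a subunit best known from lymphocytes and myeloid cells. It measured 7.26, 7.65 and 7.06 in wild-type cells and 6.53, 7.30 and 5.98 in tumors, in the same order. Tumor 24 lay among the wild-type arrays and tumor 25 was lowest. The difference was -0.72 ± 0.36 (SE, adjusted p of 0.25, 95% interval from -1.58 to 0.14), and it measured -1.07 without tumor 24 and -0.41 without tumor 25.

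Nfkb2 encodes p100, the precursor of p52 and, uncut, an inhibitor that holds RelB. It measured 6.38, 7.16 and 6.90 in wild-type replicates 1, 2 and 4, and 7.46, 6.96 and 7.30 in tumors 23, 24 and 25. Tumors 23 and 25 lay above all wild-type arrays and tumor 24 did not. The difference of 0.43 ± 0.26 (SE, adjusted p of 0.32) had a 95% interval from -0.19 to 1.04, and it turned to -0.25 when arrays were centred on housekeeping genes. It was 0.21 without wild-type replicate 1, 0.23 after a further quantile normalization and 0.22 with cyclic loess.

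**Figure D2:**
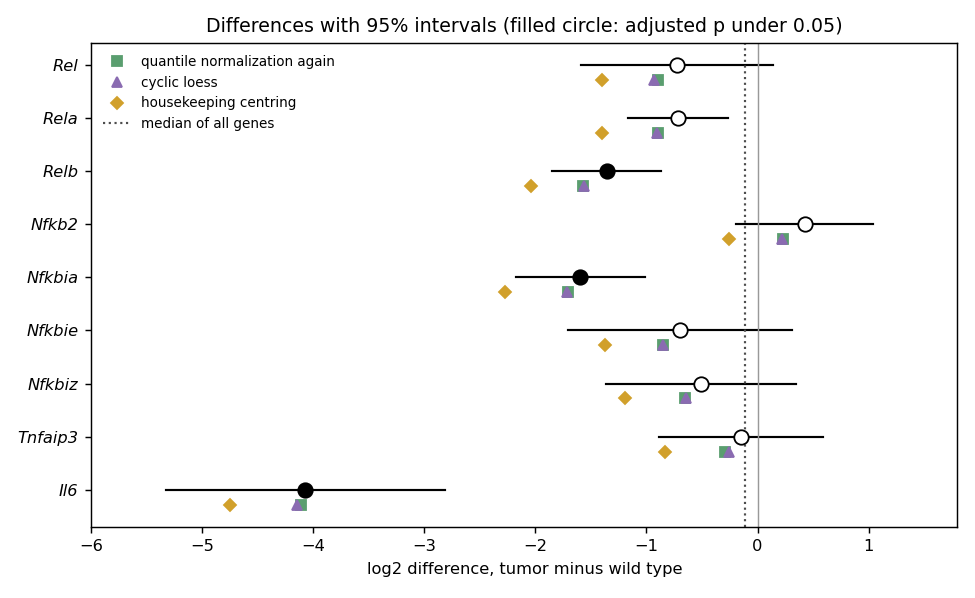
Log2 difference, tumor minus wild type (x axis), for each measured gene, with the 95% interval of limma as a line and a filled circle where the adjusted p was under 0.05. Coloured symbols give the difference after 3 other scalings, and the dotted line is the median of all genes (-0.12). Il6, Nfkbia and Relb are filled, and Nfkb2 changes side under housekeeping centring only.

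The differences depended on how the arrays were scaled. Centring on 13 housekeeping genes, which were mostly higher in tumors, shifted all genes downward, to a median of -0.80 in place of -0.12, and Rel (adjusted p of 0.044), Rela (0.031) and Nfkbie (0.036) then also passed downward. By that scaling 22.7% of all genes fell. Relative to the median of all genes, the median of the 9 genes was -0.60 as deposited and with this centring, -0.88 after a further quantile normalization and -0.93 with cyclic loess, so those last 2 scalings did not move all genes alike. Quantities taken within each array are free of a shift of the whole array. The Nfkb2 value minus the Relb value was -0.05 ± 0.49 in wild-type cells and 1.73 ± 0.35 in tumors (SD, n = 3). The groups did not overlap, and the change was 1.78 (exact permutation test, two-sided, p = 0.10, the smallest possible). The products of these genes pair in the second arm. Rela minus Nfkbia, an activator against its inhibitor, went from -1.83 ± 0.42 to -0.96 ± 0.39, again without overlap and with the same exact p. Both pairs were chosen after their values were seen, from the 36 pairs of measured genes, so they are given as a description. Of the 36 pairs, 20 did not overlap between groups, so a lack of overlap was common among them.

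The 9 genes did not all vary together among the arrays of a group, but some shared an order. Rel, Nfkbia, Nfkbiz and Tnfaip3 were highest in wild-type replicate 2 and lowest in replicate 4, where Tnfaip3 was level with replicate 1. The same genes were highest in tumor 24 and lowest in tumor 25. Wild-type replicate 2 was the highest wild-type array for 6 of them (Nfkb2, Rel, Nfkbia, Nfkbie, Nfkbiz and Tnfaip3) and the lowest for the other 3 (Rela, Relb and Il6). Tumor 25 was the lowest tumor for 7, the exceptions being Rela and Nfkb2, while tumor 24 was the highest for 5 (Rel, Rela, Nfkbia, Nfkbiz and Tnfaip3). How often each array was highest or lowest over all genes was not counted. For Il6 the order of tumors 24 and 25 is not told from background. For Nfkbiz, Tnfaip3 and Rel the gap between tumors 24 and 25 was 1.21, 0.80 and 1.32 log2 units, larger than the differences between the group means. Nfkbia also had its highest value in tumor 24 and its lowest in tumor 25, but there all tumors stayed below wild type.

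Among genes with a mean of at least 5, those most like each non-overlapping member were taken by Pearson's r over the 6 arrays, as a description. The values share the group difference, so high r is common. For Il6 they were Gse1 (r = 0.988), Bend7 (0.987) and Pdlim1 (0.985). For Nfkbia they were Fbxo30 (0.995), Mir9-1 (0.990) and Osgin1 (0.990). For Relb they were the smooth muscle myosin Myh11 (0.996), the epithelial transcription factor Klf5 (0.995) and AW112010 (0.995). For Rela they were Crebl2 (0.992), the cytolinker Plec (0.989) and the tubulin Tubb2b (0.989). None of these 12 genes was on the pathway lists used here.

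The wider pathway was followed through 5 lists. Of 14 other IκB proteins and brakes of NF-κB, none passed in limma and 6 had an unadjusted p under 0.05, with a list median of -0.29. The largest differences were those of Tnip3, an A20-binding inhibitor (-2.54 ± 0.73, SE, adjusted p of 0.10), and Bcl3, a nuclear IκB protein (-1.23 ± 0.26, adjusted p of 0.055). Bcl3 measured 6.97, 6.90 and 6.49 in wild-type cells and 5.44, 6.0 and 5.25 in tumors, without overlap. Nfkbib, which encodes IκBβ and was picked out after its values were seen, measured 6.86, 6.77 and 7.0 on wild-type arrays and 6.35, 5.96 and 6.0 in tumors, a difference of -0.77 ± 0.18 (SE, adjusted p of 0.073). Cyld and Tnip3 also had tumors below every wild-type array, and Otulin and Itch had tumors above.

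Of 24 IκB kinase subunits and adaptors, 19 had higher means in tumors, with a list median of 0.44. The median was 0.32 for the genes with a mean of at least 5, as most of this list had, and -0.12 for all genes. None passed in limma (11 at an unadjusted p under 0.05), and 10 had all tumors above all wild-type arrays, as did 14% of all genes. Under housekeeping centring the list median turned to -0.24. The largest differences were those of the kinases Ikbke (1.88 ± 0.40, SE, adjusted p of 0.058), which acts in interferon and NF-κB signalling, and Ikbkb (1.03 ± 0.42, adjusted p of 0.19), the catalytic subunit that marks IκBα. Ikbke measured 3.17, 3.82 and 3.40 in wild-type replicates 1, 2 and 4, each under the background mark of its array, and 5.95, 5.58 and 4.48 in tumors 23, 24 and 25. The kinases and adaptors and the brakes had list medians of opposite sign as deposited, and of the same sign under that centring.

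Of 24 ligands and receptors, none passed in limma (6 at an unadjusted p under 0.05) and the list median was 0.08, which turned to -0.60 under housekeeping centring. The largest differences were those of Il1rap, the shared chain of the interleukin-1 receptor (2.14 ± 0.48, SE, adjusted p of 0.064, but 0.58 and 0.17 with its probe sets averaged), and Il1b, the gene of interleukin-1β (1.91 ± 0.74, adjusted p of 0.17). Il1b measured 5.62, 5.86 and 4.73 in wild-type cells and 7.88, 8.45 and 5.61 in tumors 23, 24 and 25, so tumor 25 lay among the wild-type arrays. Tnf, the gene of tumor necrosis factor, chosen after its values were seen, measured 6.23, 4.77 and 5.41 in wild-type cells, with 4.84, 4.63 and 3.91 in tumors (-1.01 ± 0.42, SE, adjusted p of 0.19).

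Of 25 known NF-κB target genes other than those above, 3 fell, none rose and 22 did not pass, with a list median of -0.41. In limma 9 had an unadjusted p under 0.05. Tumors lay below every wild-type array for 7 (22.4% of all genes) and above for 3, Cxcl5, Saa3 and Mmp9 (14%). Saa3, named after its values were seen, had the largest difference (2.93 ± 1.38, SE, adjusted p of 0.23). It measured 9.99 in tumor 23, and 4.71 and 4.94 in tumors 24 and 25. Cxcl1, a neutrophil-attracting chemokine, went from 5.72 to 3.88 (-1.83 ± 0.22, SE, adjusted p of 0.018). Csf3, the granulocyte growth factor gene, went from 6.44 to 4.27 (-2.17 ± 0.37, adjusted p of 0.037). Sele, the gene of E-selectin of activated endothelium, went from 5.94 to 3.09 (-2.85 ± 0.48, adjusted p of 0.035), under the background mark in all 3 tumors. All 3 had tumors below every wild-type array. Csf3 lost its call whichever array was left out, Sele passed without wild-type replicate 2 or tumor 24, and Cxcl1 without tumor 24 or 25. Without wild-type replicates 1 and 4 and without tumor 23, limma called 0 of the 25 (4, 7 and 8 at an unadjusted p under 0.05). Of 17 genes of interleukin-6 family signalling, none passed in limma (6 at an unadjusted p under 0.05), with a list median of -0.26. The largest differences were those of Il6st, the shared receptor chain gp130 (-1.14 ± 0.27, SE, adjusted p of 0.068), and of the cytokine Il11 (-0.92 ± 0.28, adjusted p of 0.11). Under housekeeping centring both passed downward (adjusted p of 0.0090 and 0.015), as did Bcl3 (0.014).

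**Figure D3:**
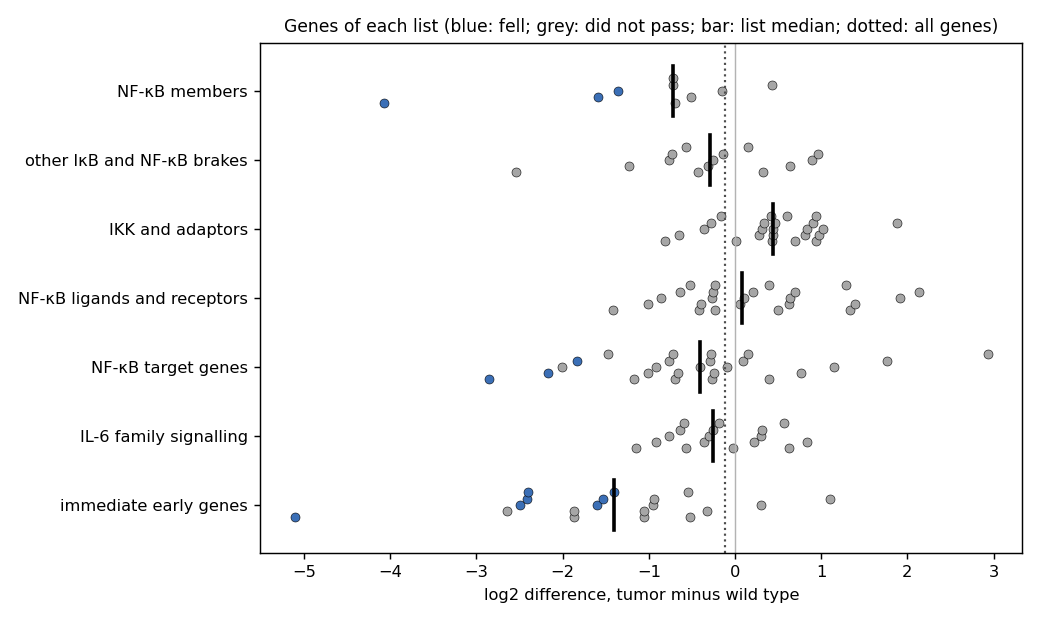
Log2 difference, tumor minus wild type (x axis), of every measured gene of the 9 members, the 5 pathway lists and the immediate early genes (y axis), with genes that fell in blue, genes that did not pass in grey, list medians as bars and the median of all genes dotted. The medians run from -1.40 for immediate early genes to 0.44 for kinases and adaptors, and the blue points are in the members, the target genes and the immediate early genes.

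Immediate early genes are those that cells switch on within minutes of a stimulus, stress, injury and handling among others. Of 19, 7 fell (1.39% of all genes), none rose (2.52%) and 12 did not pass, with a list median of -1.40. In limma 12 of the 19 had an unadjusted p under 0.05. Tumors lay below every wild-type array for 12 (22.4% of all genes) and above for 0 (14%). Nr4a1 (1.10) and Egr2 (0.30), named after their values were seen, had higher means in tumors. Fosb (-5.10), Klf6 (-2.49), Fos (-2.41), Zfp36 (-2.40), Dusp1 (-1.61) and Jund (-1.53) were the largest of the 7, and Klf2 (-1.40) was the other one. With probe sets averaged Jund was at -0.92. With an array left out, 3 to 6 passed, fewest without wild-type replicate 4 (Fos, Fosb and Klf6); 4 passed without wild-type replicate 1, wild-type replicate 2 or tumor 23. The mean of the list lay between 7.05 and 7.44 on wild-type arrays and between 5.42 and 6.0 in tumors. Wild-type cells were sorted and the labels describe no sorting of tumors, so preparation and tumor state cannot be told apart for these genes, nor for the NF-κB members beside them.

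Markers of other cell types moved as well, and in bulk samples fewer cells of a type cannot be told apart from less RNA per cell. Of 13 macrophage markers, 7 rose and none fell (2 or 3 rose without any 1 wild-type array, and 2 without tumor 23); the list mean lay between 3.90 and 4.41 on wild-type arrays and between 5.75 and 6.48 in tumors, and for 5 markers every wild-type array was under its background mark. Macrophages can express Il6, Il1b and Nfkbia. Between the groups Il6 and Nfkbia were lower in tumors and Il1b had a higher mean. Within the tumors the macrophage list mean was 6.48, 6.17 and 5.75 in tumors 23, 24 and 25. Il6 was also highest in tumor 23, but its values in tumors 24 and 25 lay under the background mark and cannot be ranked. Il1b and Nfkbia were highest in tumor 24. Krt8, the keratin that names the virus, measured 10.31 to 11.12 on wild-type arrays and 7.76 to 9.41 in tumors, far above background on all 6. Its difference of -2.05 ± 0.48 (SE) did not pass in limma (adjusted p of 0.068). Of 11 luminal epithelial markers 4 fell and 2 rose (1 to 4 passed with an array left out), and the list mean went from between 7.87 and 8.33 to between 6.40 and 6.93. Those that fell were Cd24a (-1.80), Esr1 (-2.67), Foxa1 (-3.07) and Pgr (-2.60), and those that rose were Elf5 (1.90) and Kit (2.42). Elf5 lay under the background mark on every wild-type array. The list mean thus joins genes that moved in opposite directions. Among the fibroblast markers 1 of 10 rose and 9 had higher means in tumors. List means were 5.26 to 5.76 on wild-type arrays and 5.56 to 6.99 in tumors. Dcn, named after its values were seen, went the other way, from 10.69 to 7.93, with tumors below every wild-type array. Its difference was -2.76 ± 0.56 (SE, adjusted p of 0.052 in limma). Fibroblasts are a known source of Il6. No marker passed of 11 for lymphocytes, 9 for neutrophils, 9 for skeletal muscle and 7 for adipocytes in limma (1, 4, 3 and 2 at an unadjusted p under 0.05), and 1 of 9 endothelial and 1 of 8 basal markers fell. All 7 adipocyte markers had lower means in tumors, and 3 of them lay under the background mark on every array. Fabp4, named after its values were seen, measured 10.75, 10.84 and 8.61 in wild-type replicates 1, 2 and 4. In tumors 23, 24 and 25 it measured 8.22, 7.08 and 6.30 (-2.87 ± 0.73, SE, adjusted p of 0.082 in limma). Whether the sorted wild-type cells held other cell types was not tested. List means of lymphocyte markers were 3.50 to 3.82 and 3.25 to 3.69, with 6 of 11 markers below the mark throughout the wild-type group and 3 throughout the tumors. Skeletal muscle markers had a list mean of 8.60, 3.62 and 5.90 in tumors 23, 24 and 25, where wild-type arrays had 3.39 to 3.62. The part of these markers in the differences of the NF-κB genes was not tested.

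**Figure D4:**
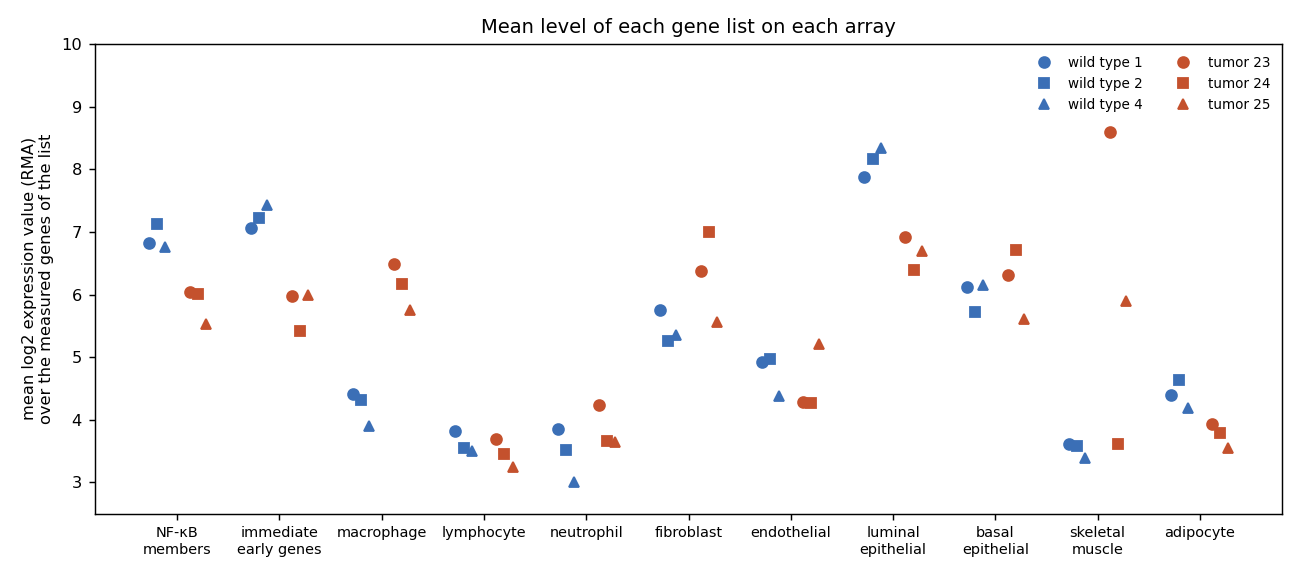
Mean log2 expression value (y axis) over the measured genes of each list (x axis) on each array, wild-type arrays in blue and tumors in orange, with a symbol for each replicate or tumor. By list mean, tumors lie below wild type for the NF-κB members, the immediate early genes, the luminal markers (2 of which rose) and the adipocyte markers. They lie above it for the macrophage markers, while muscle markers stand high in tumors 23 and 25.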

How the data were processed

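Per the labels, NuGEN Ovation V2 was used to amplify total RNA, and biotin was the label, on 6 arrays. The authors deposited log2 values per probe set; per the submitters' processing notes they used RMA and oligo (versions: not given in the sources used here). This normalization compresses differences near background. No scanner files were used, so no detection calls or batches could be examined, and precision is limited by there being 3 arrays a group. Of 41345 probe sets, 23521 named 1 gene, 1814 several and 16010 none in the platform annotation; Entrez identifiers gave 23328 of these a RefSeq symbol (GRCm38.p6), and the platform's symbol stood for the other 193. The probe set with the highest mean stood for each of 22180 genes.

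Groups were compared with limma 3.58.1 in R 4.3.3 (lmFit, eBayes), two-sided, with no covariate, and Benjamini-Hochberg adjustment over all 22180 genes. The step was tested on simulated data, drawn as independent normal values with the same spread of a gene in both groups. That test did not cover unequal spread, shifts of a whole array or a floor at background. The members, the lists and the background mark were chosen with earlier results of these data known. Named were all members, the called genes of each pathway list (at most 6, or the 2 largest differences where fewer than 2 passed), and the 3 genes most like each non-overlapping member. Alternatives were a filter on dim genes (mean of at least 5), averaging over probe sets, testing each probe set by itself, 3 other scalings, a trended robust prior and leaving out each array.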

Additional observations from a re-analysis of the deposited data

How the results depend on the processing

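All 9 members kept their direction under every alternative, except Nfkb2, which measured -0.25 after housekeeping centring, and Tnfaip3, which ran from -0.37 to 0.11 with an array left out (0.11 without wild-type replicate 2 and 0.03 without tumor 25). As measured, Il6, left out by the filter on dim genes, ranged from -4.75 to -3.69, Nfkbia from -2.27 to -1.39 and Relb from -2.04 to -1.22. Of the 9 members 3 passed as deposited, 6 after housekeeping centring and 0 to 3 with an array left out. All genes called numbered 867, 5441 after housekeeping centring and 72 to 1200 with an array left out (highest without tumor 24). Housekeeping centring, by which 22.7% of all genes fell, gave 5 of 14 brakes, 1 of 24 kinases and adaptors and 5 of 24 ligands and receptors. It also gave 12 of 25 target genes, 5 of 17 genes of interleukin-6 signalling and 16 of 19 immediate early genes. All of these fell except 1 ligand or receptor, which rose. The counts are to be read against that share, which those for kinases and adaptors and for ligands and receptors did not exceed. Quantile normalization again gave 2 brakes and 1 kinase or adaptor. Cyclic loess gave 1 brake and 1 ligand or receptor, and so did the filter on dim genes. The trended robust prior gave 1 kinase or adaptor and 1 ligand or receptor. With an array left out the counts ran from 0 to 2 for brakes, 0 to 1 for kinases and adaptors, 0 to 3 for ligands and receptors, 0 to 3 for target genes, 0 to 0 for interleukin-6 signalling and 3 to 6 for immediate early genes. Of the calls 64.5% were higher in tumors as deposited, 7.48% with housekeeping centring, 60.7% with cyclic loess and 55.7% with quantile normalization. No paired analysis was possible because the groups share no replicate numbers. Il6 lies below the background mark in tumors 24 and 25, so the size of its difference on these arrays is known only as a lower bound.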
